A study of Homo sapiens with 8 samples.

Results

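Zinc finger genes that carry a number in their symbol form a large family of DNA-binding regulators in human cells, and their mRNAs were followed here through pull-downs of miR-23b and miR-27a. Members were the genes whose symbol in the probe annotation was ZNF, a number and at most 1 further letter, and 260 of 9535 genes with a probe met this rule. They were read by 312 probes of 14479. Of 509 protein-coding genes that RefSeq lists under such a symbol, 256 were among the members, and the other 4 members have another annotation there, such as the transcribed pseudogenes ZNF252P, ZNF815P and ZNF876P. The cells were HEK293T, a widely used human line first grown from embryonic kidney. Cells were transfected with 200 pmol of a synthetic miRNA duplex carrying biotin, either miR-23b or miR-27a, and harvested after 24 h. All 4 groups shared the cell line and the transfection reagent, and had 2 arrays each: the RNA recovered on streptavidin beads after each miRNA (the pull-down), and RNA with no pull-down from cells given the same miRNA (the input). None of the 8 arrays holds RNA from beads of cells given an unrelated duplex. Recovery through the miRNA therefore cannot be told apart from recovery by the beads or the biotin tag. Nothing in the labels makes the replicates separate cultures, and the p-values then cover array-to-array scatter alone, possibly technical.

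Most ZNF proteins grip DNA through tandem C2H2 fingers, loops in which pairs of cysteines and histidines hold a zinc ion. Many of them also carry a KRAB domain, which recruits the corepressor TRIM28 and through it the histone methyltransferase SETDB1, and KRAB zinc finger proteins are best known for silencing transposable elements. The genes arose by repeated tandem duplication, much of it on human chromosome 19. A miRNA loaded into an Argonaute protein finds its targets mainly by pairing of its seed, and mRNAs held by the complex are recovered with the tagged miRNA.

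The 2 miRNAs are shown because their seeds set what each could pair with. The sequences are the mature 3p strands in RefSeq, on assembly GRCh38.p14, since the labels name no strand and these are the strands usually meant by the short names. The strand choice is therefore an assumption. Capitals mark the seed, bases 2 to 8.
hsa-miR-23b-3p: aUCACAUUgccagggauuaccac
hsa-miR-27a-3p: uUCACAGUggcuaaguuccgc
MiR-23b-3p lies at chr9:95085265-95085287 on the plus strand and miR-27a-3p at chr19:13836447-13836467 on the minus strand. The seeds shared 6 of 7 bases, and bases 2 to 6 were the same. Counted from 1 at the 5′ end, the seeds differed by U7G from miR-23b to miR-27a, so that the letters opposite the seeds are AAUGUGA for miR-23b and ACUGUGA for miR-27a. No mRNA sequences were searched.

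Values are deposited log2 signals, and a change is the mean of the pull-down arrays minus that of the inputs. Each is relative to the rest of its array, since the 8 array medians ran from 9.09 to 9.12. In bulk RNA of this kind, more copies per cell and more cells with the transcript cannot be told apart. Across the members, the 6 pairs of inputs correlated at 0.98 to 0.993 and the 6 pairs of pull-downs at 0.966 to 0.988. The 16 mixed pairs gave 0.903 to 0.936. Of 9 markers of the line, 6 were on the table, with LIN28B, an RNA-binding protein gene, at an input mean of 11.8 and NES at 7.43. Of the kidney epithelial list 0 of 6 were on the table, of the blood list 0 of 5, and of the fibroblast list 1 of 6, COL1A1, whose level lay between 7.53 and 7.81 in the inputs and between 7.29 and 8.71 in the pull-downs, and whose part in the results was not tested.

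Most members gave a dim signal. The mean of the 4 inputs lay between 7.36 and 14.3 over the 260 genes, with a median of 8.50 and quartiles of 7.92 and 9.33, where the lowest value of any array was 7.18. It was under 8 for 78 members, 8 to 9 for 96, 9 to 10 for 44 and at least 10 for 42. The 4 brightest probes were those of ZNF674, ZNF430, the pseudogene ZNF876P and ZNF549, but brightness differs between probes and does not rank the genes by mRNA amount. Between the inputs of the miRNAs, the differences over the members, miR-27a minus miR-23b, lay between -0.54 and 0.32, and 0 of 260 passed in limma. At an unadjusted p under 0.05 there was 1 of the 260 members, and 0.598% of all genes.

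With miR-23b the family lay above its input more often than below it. Of the 260 members 56 rose, 11 fell and 193 did not pass in limma at an adjusted p under 0.05, where 13.4% of all genes rose and 10.9% fell. The rises took 21.5% of the family and the falls 4.23%. The median change of the members was 0.16, against 0.02 over all genes, and the middle members, from the lower to the upper quartile, lay between -0.08 and 0.49. Within replicates 1 and 2 the median was 0.10 and 0.20, and 159 and 189 members were above 0, where 49.7% and 54.2% of all genes were. Both pull-downs lay above both inputs in 121 members, or 46.5%, where 32.3% of all genes did, and below them in 51, or 19.6%, where 28.9% did. In a fit with the replicate number as a further term, called the block here, 83 rose and 24 fell, where 24.5% and 20.2% of all genes did. The count of rises was 24 without input replicate 2 of miR-23b, and that of falls was 4 to 6 without any single miR-23b array.

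With miR-27a 65 members rose, 15 fell and 180 did not pass, where 18.5% of all genes rose and 16.1% fell. The falls made up 5.77% of the family. Both pull-downs lay above both inputs in 116 members, or 44.6%, where 33.8% of all genes did, and below them in 75, or 28.8%, where 37.2% did. The median was 0.13, against -0.04 over all genes, and 0.04 and 0.18 within replicates 1 and 2, where 135 and 172 members and 45.5% and 49.1% of all genes were above 0. The family spread more widely here than with miR-23b, with an SD of 0.60 across members against 0.50, and the same held for all genes, at 0.62 and 0.53. With the replicate block 84 rose and 41 fell, where 26.4% and 27.0% of all genes did. Without pull-down replicate 2 of miR-27a 43 rose and 6 fell, and the falls numbered 8 without pull-down replicate 1 and 5 without input replicate 1.

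**Figure D1:**
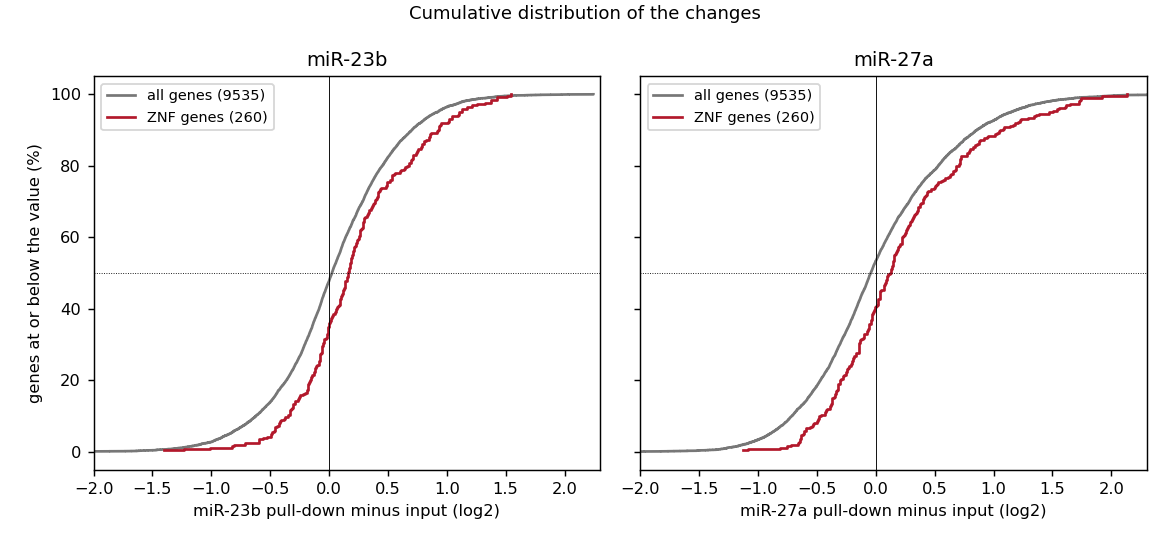
Cumulative share of genes (%) against the log2 change in the miR-23b pull-down (left) and the miR-27a pull-down (right), for the 260 ZNF genes (red) and all 9535 genes (grey). The red curve lies to the right of the grey one over most of its range, with medians of 0.16 and 0.02 for miR-23b and 0.13 and -0.04 for miR-27a.

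By the mean of the 4 inputs (a grouping chosen after the data were seen) the median change was highest in the brightest of 4 groups for each miRNA. Over the 78 members with an input level under 8 the medians were 0.10 for miR-23b and 0.04 for miR-27a, and 8 rose with each miRNA, where 7.0% and 11.1% of the 1743 genes at that level did. Over the 42 members at 10 or more the medians were 0.36 and 0.40, against -0.03 and -0.15 over the 3431 genes at that level. Of these members 15 and 20 rose and 4 and 5 fell, where 15.8% and 19.1% of the genes rose and 18.2% and 24.8% fell. Each gene is read here by 1 probe. Among these members ZNF549, ZNF14 and ZNF394 rose with both miRNAs, but each has another probe at a mean level under 8. Those probes passed for neither miRNA, with -0.02 and -0.09, -0.01 and -0.24, and -0.24 and -0.27. For ZNF830 the brightest probe passed for neither miRNA, and a dimmer one fell with both (-0.64 and -0.59). What the bright probes bind was not tested. Grouped instead by the mean of all 8 arrays, which the pull-downs themselves raise, the 45 members at 10 or more had medians of 0.48 and 0.71, and the 66 under 8 had 0.04 and near 0. Of those 66, 2 rose with each miRNA, where 2.41% and 4.53% of all genes in that group did. The next counts use the 8-array mean as well. Among the 72 members above the median level of all genes, 38.9% rose with miR-23b and 48.6% with miR-27a, where 18.3% and 23.5% of all such genes did, and 5.56% and 8.33% fell, where 14.2% and 19.7% did. Among the 188 members below it 28 and 30 rose, where 8.43% and 13.5% of all such genes did, and 7 and 9 fell, where 7.59% and 12.5% did. A change of a dim probe may be understated, so that the small values of the dim members do not bound their enrichment.

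ZNF562, a KRAB member on chromosome 19, had the largest change of the family in the miR-27a pull-down. Its inputs read 9.83 and 9.66 for miR-23b and 9.76 and 9.38 for miR-27a, and its pull-downs 11.25 and 11.09 with miR-23b and 11.75 and 11.67 with miR-27a. Every pull-down lay more than 1 log2 unit above every input. The changes were 1.43 ± 0.16 (SE) with miR-23b and 2.14 ± 0.16 with miR-27a (limma, adjusted p = 0.0025 and 0.00056), an apparent 2.69-fold and 4.40-fold.

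ZNF529, also a KRAB gene of chromosome 19, had the largest change with miR-23b. Its inputs were 9.52, 9.11, 9.39 and 9.0, its miR-23b pull-downs 10.86 and 10.85, and its miR-27a pull-downs 11.16 and 11.06. The groups did not overlap, and the changes were 1.54 ± 0.19 and 1.92 ± 0.19 (adjusted p = 0.0028 and 0.00091). ZNF70, on chromosome 22, rose from inputs of 8.15, 7.93, 7.98 and 8.02 to 9.51 and 9.58 with miR-23b and 9.68 and 9.79 with miR-27a. Its replicates lay close together in each group, and its changes of 1.51 ± 0.14 and 1.74 ± 0.14 had adjusted p-values of 0.0019 and 0.00056, the first the smallest of the family for miR-23b.

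ZNF786, on chromosome 7, rose by 1.38 ± 0.21 and 1.92 ± 0.21 (adjusted p = 0.0053 and 0.0012). Its miR-23b pull-downs stood apart from each other, at 10.16 and 10.72, and both were above its inputs of 9.16, 8.96, 9.18 and 8.85. ZNF486 (1.37 ± 0.21 and 1.72 ± 0.21) and ZNF573 (1.21 ± 0.19 and 1.61 ± 0.19), both of chromosome 19, were among the 10 largest rises with each miRNA as well. ZNF264, ZNF615 and ZNF614 completed the list for miR-23b together with ZNF385A, described below, and rose by 1.33, 1.25 and 1.17 there and by 1.51, 1.34 and 1.23 with miR-27a. ZNF329, ZNF557, ZNF652 and ZNF483 completed the list for miR-27a, with rises of 1.74, 1.72, 1.65 and 1.62 there and of 1.05, 1.13, 1.17 and 1.02 with miR-23b. ZNF652 encodes a repressor that works with the corepressor CBFA2T3, and ZNF483 joins a SCAN domain, which pairs such proteins with each other, to a KRAB domain. The 10 leading genes of each comparison kept their calls there without any single array. The rise of ZNF557 rests on its brighter probe, at a mean level of 8.92. Its other probe, at 7.92, passed for neither miRNA in limma. There the miR-27a change was -0.23 (adjusted p = 0.40) and the miR-23b change -0.07 (0.83).

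**Figure D2:**
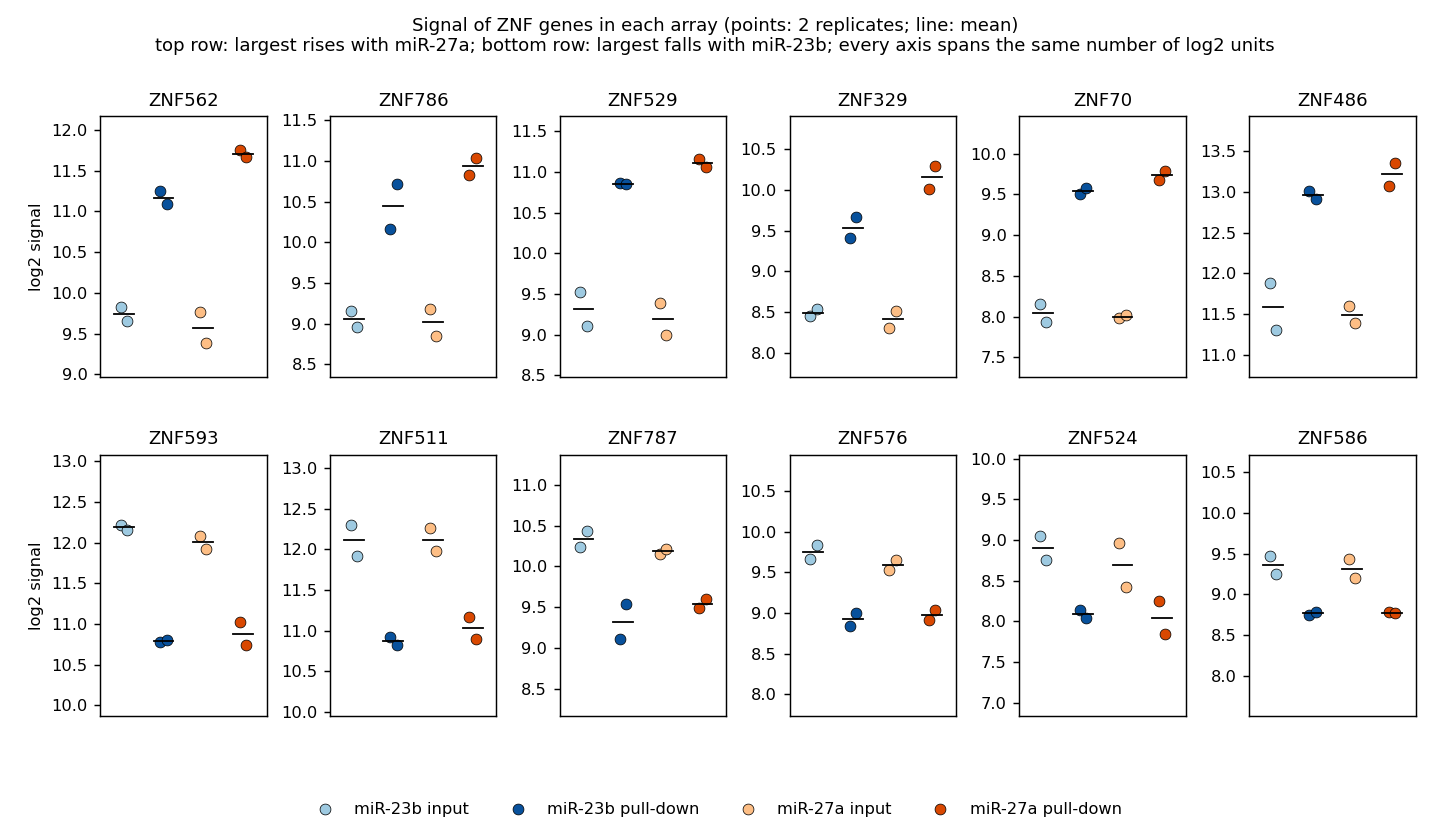
Log2 signal (vertical axis, of equal length in every panel) of 12 ZNF genes in each of the 8 arrays, with points for the 2 replicates and a line for their mean. In the top row both pull-downs lie above both inputs for each miRNA, as for ZNF562 with inputs up to 9.83 and pull-downs from 11.09, and in the bottom row they lie below, as for ZNF593 with inputs from 11.92 and pull-downs up to 11.02.

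In all, 46 members rose with both miRNAs, which is 17.7% of the family, where 9.97% of all genes did. In 84 members, or 32.3%, all 4 pull-down arrays lay above all 4 inputs, where 21.0% of all genes were so placed. Other members that rose with both included ZNF827, a protein known to bring chromatin remodellers to telomeres (1.05 ± 0.20 with miR-23b and 0.88 ± 0.20 with miR-27a), ZNF346, which binds double-stranded RNA (0.61 ± 0.16 and 0.59 ± 0.16), and the related ZNF518A (0.53 and 0.65) and ZNF518B (0.71 and 0.64). ZNF175, a KRAB gene, rose by 0.94 ± 0.20 and 1.56 ± 0.20. ZNF175 was named by the rule for the largest differences and the other 4 after their values were seen. ZNF346 did not pass in limma with any of 3 single arrays left out for each miRNA, and ZNF827 without any of 1 array for miR-23b and 3 for miR-27a. ZNF518A lost its miR-23b call without any of 4 arrays, and ZNF518B each call without any of 2. The pseudogene ZNF876P rose by 0.86 ± 0.16 and 1.03 ± 0.16, and its probe, like those of other close relatives in this family, may also bind their transcripts.

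A smaller set fell. ZNF593, whose yeast relative acts in the maturation of the large ribosomal subunit, had the largest fall with each miRNA. Its inputs were 12.21, 12.16, 12.09 and 11.92, its miR-23b pull-downs 10.77 and 10.80, and its miR-27a pull-downs 11.02 and 10.74. Every pull-down was below every input, and the changes were -1.40 ± 0.15 and -1.12 ± 0.15 (adjusted p = 0.0021 and 0.0018). ZNF511, on chromosome 10, fell from inputs of 12.29, 11.92, 12.26 and 11.98 to 10.93 and 10.82 with miR-23b and to 11.17 and 10.90 with miR-27a. Its pull-downs too were below every input, with changes of -1.23 ± 0.18 and -1.08 ± 0.18 (adjusted p = 0.0047 and 0.0041). These genes kept their calls in both comparisons without any single array.

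ZNF787 fell by 1.01 for miR-23b and 0.64 for miR-27a. ZNF576 fell by 0.83 and 0.61. Both kept the miR-23b call without any single array. With miR-27a ZNF787 lost it without any miR-27a array (adjusted p up to 0.11) and ZNF576 without pull-down replicate 1 or input replicate 2 (up to 0.075). ZNF586 (-0.60 and -0.54), ZNF581 (-0.60 and -0.49), ZNF821 (-0.59 and -0.64) and ZNF174, a SCAN domain repressor (-0.56 and -0.63), also fell with both, as did ZNF672 (-0.43 and -0.52), which was outside the rule for named genes. Without single miR-23b arrays ZNF586, ZNF581 and ZNF174 lost their calls there in each of the 4 cases, and ZNF821 in all but that without pull-down replicate 2 (adjusted p up to 0.11). With miR-27a ZNF581 lost its call in 4 of the 8 fits with an array left out, ZNF586 and ZNF672 in 3 and ZNF174 in 2, and ZNF672 kept its miR-23b call in 0 of 8. In all 9 members fell with both, or 3.46% of the family, where 8.32% of all genes did. All 4 pull-downs lay below all 4 inputs in 35 members, or 13.5%, where 20.0% of all genes were so placed.

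Falls with 1 miRNA alone were 2 with miR-23b and 6 with miR-27a, beside the 9 with both. Of all genes 10.9% fell with miR-23b, 16.1% with miR-27a and 8.32% with both. ZNF524, a telomere-binding protein (-0.81 ± 0.22 with miR-23b, -0.65 ± 0.22 with miR-27a, adjusted p = 0.034 and 0.053), and ZNF16 (-0.49 ± 0.14 and -0.24 ± 0.14, adjusted p = 0.037 and 0.22) passed for miR-23b. ZNF524 lost this call without any miR-23b array (up to 0.14) and passed with miR-27a in the fit with the replicate block (adjusted p = 0.0025). ZNF16 lost its call whichever of the 8 arrays was left out (0.056 to 0.18) and with the mean of its probes (0.075). With miR-27a ZNF408, a gene tied to inherited retinal disease (-0.82 ± 0.16), ZNF444 (-0.72 ± 0.18), ZNF213 (-0.66 ± 0.20) and ZNF296 (-0.64 ± 0.15) passed, with -0.29, -0.34, 0.12 and 0.12 for miR-23b. ZNF408 kept this call without any single array. ZNF444 lost it without input 1 or either pull-down of miR-27a, ZNF296 without input 1 or pull-down 2, and ZNF213 without these or either miR-23b input (adjusted p up to 0.22). ZNF410, a zinc finger protein known to switch on CHD4, passed too (-0.61 ± 0.19 with miR-27a, adjusted p = 0.041) and had -0.46 ± 0.19 with miR-23b (0.12), as did ZNF74 (-0.50, and -0.44 with miR-23b, which passed there with the block at 0.028). Both were chosen after their values were seen, and they kept the call without 2 and 1 of the 8 arrays.

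The changes with the 2 miRNAs were of the same sign in 216 of 260 members, or 83.1%, close to the 80.1% of all genes. They correlated at r = 0.84 (Spearman's rho = 0.82) across the members, which are not independent replicates and share the arrays and the fit, against 0.79 across all genes. The median size of the difference between the changes was 0.18 over the members and 0.21 over all genes. Calls of opposite direction were found in 0 members, where 0.378% of all genes had them. With the block 2 members had them, ZNF580 and ZNF384, each a rise for miR-23b and a fall for miR-27a, where 1.35% of all genes did. For the neighbours ZNF614 and ZNF615 the difference, miR-27a minus miR-23b, was 0.06 (95% interval -0.43 to 0.55) and 0.09 (-0.36 to 0.54), intervals that still allow a difference of either sign.

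**Figure D3:**
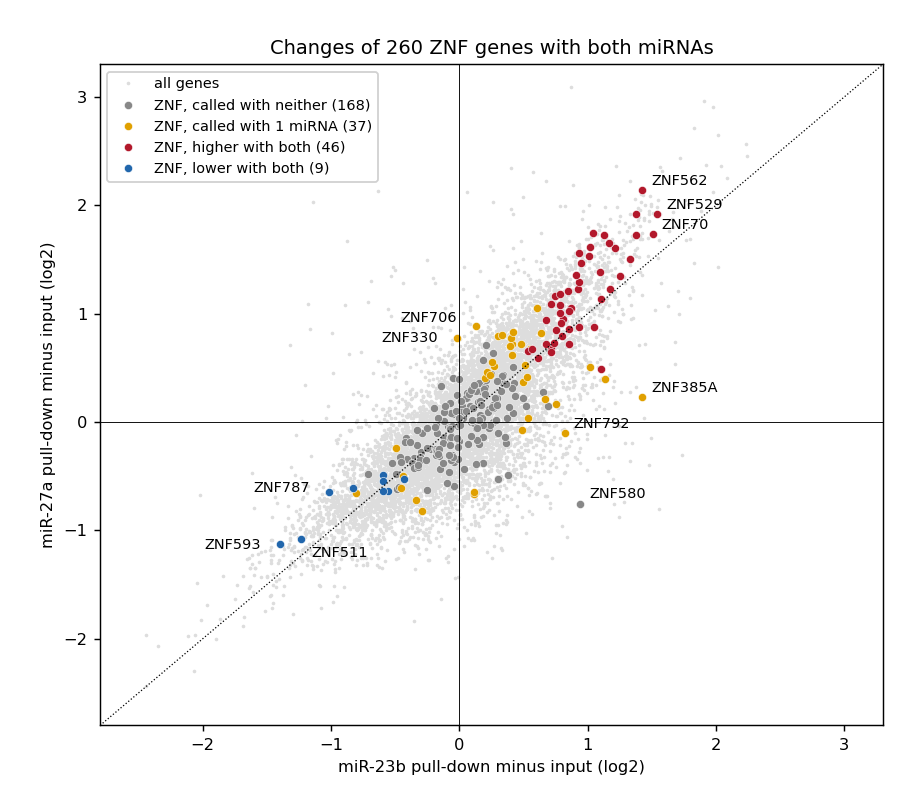
Log2 change in the miR-27a pull-down (vertical) against that in the miR-23b pull-down (horizontal) for the 260 ZNF genes, coloured by their calls, over all genes in pale grey, with the line of equal change dotted. The 46 genes that rose with both lie at the upper right, led by ZNF562, ZNF529 and ZNF70, the 9 that fell with both at the lower left, and ZNF580, ZNF385A and ZNF792 lie furthest under the line.

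For the difference between the miRNAs, 0 of 260 members passed in limma, where 0.283% of all genes were higher with miR-27a and 0.262% with miR-23b. At an unadjusted p under 0.05 there were 19 of the 260 members, and 10.2% of all genes. The smallest adjusted p was 0.14. With the replicate block 10 members passed, 4 higher with miR-27a and 6 with miR-23b, where 1.48% and 3.20% of all genes did. The shares of the family, 1.54% and 2.31%, were near these. The 10 genes are described because they are the members that set the miRNAs apart in that fit.

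ZNF580 had the widest gap, and its changes had opposite signs. Its miR-23b pull-downs of 12.12 and 11.86 lay above the inputs of 11.33 and 10.77, and its miR-27a pull-downs of 10.33 and 10.19 below the inputs of 11.48 and 10.55. The inputs themselves were far apart, so that the changes of 0.94 ± 0.31 and -0.75 ± 0.31 did not pass without the block (adjusted p = 0.058 and 0.091) and did with it (0.0026 and 0.0060). The difference was -1.70 ± 0.43 (adjusted p = 0.21, and 0.0070 with the block). Its neighbour ZNF581 fell with both miRNAs, as given above.

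ZNF385A, whose product acts with p53 on genes of cell cycle arrest, rose with miR-23b. Its pull-downs there were 9.78 and 9.47 over inputs of 8.34 and 8.06, and with miR-27a 8.26 and 8.05 over inputs of 8.08 and 7.76. The miR-23b pull-downs cleared both inputs by more than 1 log2 unit, and the miR-27a pull-downs overlapped with theirs. The changes were 1.42 ± 0.19 (adjusted p = 0.0034) and 0.23 ± 0.19 (0.37), and the difference was -1.19 ± 0.26 (0.14, and 0.0036 with the block). ZNF792, a KRAB gene, read 9.22 and 9.14 in the miR-23b pull-downs over inputs of 8.43 and 8.29, but 8.13 and 8.45 in the miR-27a pull-downs, which overlapped with inputs of 8.48 and 8.30. It rose by 0.82 ± 0.16 with miR-23b (adjusted p = 0.0097, and 0.062 in the least favourable of the 8 fits with 1 array left out), had -0.10 ± 0.16 with miR-27a (0.64), and differed by -0.93 ± 0.22 (0.17, and 0.034 with the block).

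ZNF384, a transcription factor known from leukaemia fusions, and ZNF358 had values of 0.38 ± 0.19 and 0.30 ± 0.25 with miR-23b and of -0.49 ± 0.19 and -0.53 ± 0.25 with miR-27a, none of which passed without the block. Their differences were -0.87 ± 0.27 and -0.83 ± 0.36 (adjusted p = 0.33 and 0.53, and 0.034 and 0.035 with the block). With the block ZNF384 rose with miR-23b (adjusted p = 0.042) and fell with miR-27a (0.012), and ZNF358 fell with miR-27a (0.0068). ZNF213 differed by -0.78 ± 0.29 (0.44, and 0.036 with the block).

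On the other side, ZNF330, a nucleolar zinc finger protein, rose with miR-27a by 0.77 ± 0.15 (adjusted p = 0.0076) and had -0.02 ± 0.15 with miR-23b. Its miR-27a pull-downs were 10.74 and 10.42 and the inputs 9.86 and 9.75, against pull-downs of 10.26 and 10.39 and inputs of 10.40 and 10.28 with miR-23b. The miR-27a pull-downs were the higher ones, and the miR-27a inputs were the lower ones. The inputs differed by -0.54, miR-27a minus miR-23b, the widest gap between inputs in the family. The difference of the changes was 0.79 ± 0.22 (0.26, and 0.048 with the block). These values are from the brighter probe of ZNF330, at a mean level of 10.26. Its other probe, at 8.87, passed for neither miRNA in limma. There the miR-27a change was 0.35 (adjusted p = 0.099) and the miR-23b change 0.13 (0.56). The call of ZNF330 therefore depends on the probe. ZNF706 read 10.13 and 9.65 in the miR-27a pull-downs over inputs of 9.23 and 8.78, a change of 0.89 ± 0.28 (0.043, lost without each of 4 single arrays), and 9.51 and 9.05 over inputs of 9.47 and 8.82 with miR-23b. Replicate 1 was higher than replicate 2 in every group of this gene, and its difference of 0.75 ± 0.40 had an adjusted p of 0.66, and of 0.033 with the block. ZNF562 and ZNF329, which rose with both, differed by 0.71 ± 0.23 and 0.70 ± 0.23 (0.36 and 0.37, and 0.049 and 0.044 with the block).

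**Figure D4:**
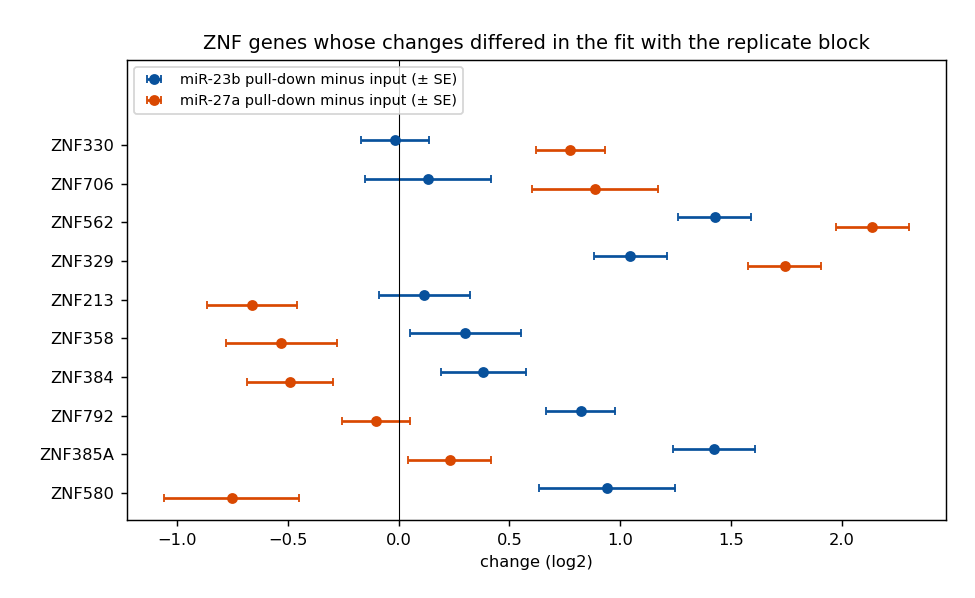
Log2 change (horizontal, with its SE) in the miR-23b pull-down (blue) and in the miR-27a pull-down (orange) of the 10 ZNF genes whose changes differed in the fit with the replicate block. The lower 6 genes are higher with miR-23b, down to ZNF580 at 0.94 and -0.75, and the upper 4 are higher with miR-27a, of which ZNF562 and ZNF329 rose with both.

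With the block the difference passed in 2 of the 10 members that rose with miR-23b only, ZNF385A and ZNF792, in 2 of the 19 that rose with miR-27a only, ZNF330 and ZNF706, and in 1 of the 6 that fell with miR-27a only, ZNF213. Calls with 1 miRNA only were found beyond the family too. Of all genes, 13.4% rose with miR-23b, 18.5% with miR-27a and 9.97% with both, and 16.1% fell with miR-27a and 8.32% with both. ZNF512B (1.13 ± 0.24 with miR-23b and 0.40 ± 0.24 with miR-27a), ZNF500 (1.02 and 0.51), ZNF616 (0.75 and 0.16), ZNF564 (0.54 and 0.04) and ZNF490 (0.49 and -0.07) were among the others that rose with miR-23b but did not pass with miR-27a, and their differences had adjusted p-values of 0.39 to 0.76. ZNF500 and ZNF512B rose with miR-27a too in the fit with the block (adjusted p = 0.0077 and 0.027). ZNF148, which binds GC-rich promoters (0.72 ± 0.14), ZNF451, a SUMO ligase (0.83 ± 0.17), ZNF644 (0.71 ± 0.17) and ZNF462 (0.67 ± 0.19) were among the 19 that rose with miR-27a but did not pass with miR-23b, where they had 0.41, 0.42, 0.39 and 0.55. All 4 rose with miR-23b in the fit with the block. A second, slightly dimmer probe of ZNF644 had the reverse calls. It gave 0.61 with miR-23b, which passed (adjusted p = 0.028), and 0.31 with miR-27a, which did not (0.17). The place of ZNF644 among the 19 therefore depends on the probe. Members with known roles that passed with neither miRNA included ZNF143, an activator of small RNA and protein genes (-0.33 ± 0.15 and -0.21 ± 0.15), ZNF207, a spindle assembly factor (-0.41 ± 0.15 and -0.34 ± 0.15, which fell with both in the fit with the block), ZNF217, an oncogene of breast cancer (0.44 ± 0.21 and 0.24 ± 0.21), ZNF281 (0.20 and 0.25), ZNF598, which senses collided ribosomes (-0.32 and -0.39, the second of which passed with the block at 0.035), and ZNF91, which represses retroelements (0.17 ± 0.20 and 0.15 ± 0.20). The genes of this paragraph were chosen for their roles or after their values were seen.

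Calls were set beside position and gene span as a description. Of the members 105 lie on chromosome 19 in RefSeq. There 31 rose and 5 fell with miR-23b, and 30 and 6 with miR-27a, and elsewhere 25 and 6, and 35 and 9, of 155. The shares that rose were 29.5% and 28.6% on chromosome 19 and 16.1% and 22.6% elsewhere. The other 537 genes of chromosome 19 went the other way, with 5.96% higher and 17.9% lower with miR-23b and 5.40% higher and 31.1% lower with miR-27a. Their medians were -0.14 and -0.31. The members on that chromosome had medians of 0.19 and 0.07, and those elsewhere 0.13 and 0.15, so that for miR-27a the order of the medians was opposite to that of the shares. These shares are descriptions and were not tested.

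**Figure D5:**
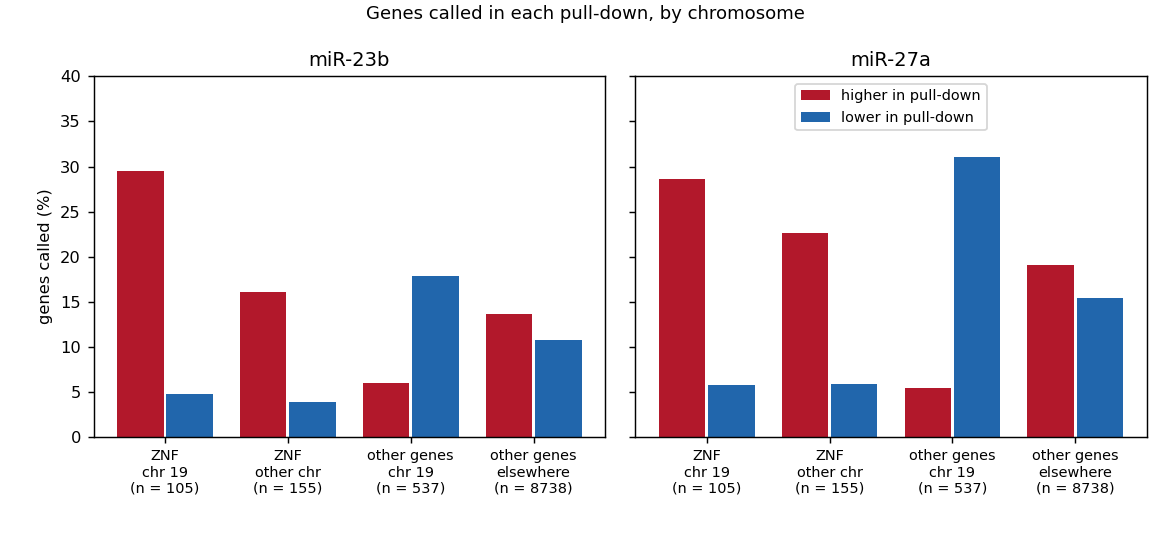
Share of genes (%) called higher (red) or lower (blue) in the miR-23b pull-down (left) and the miR-27a pull-down (right), for ZNF genes on chromosome 19 and on other chromosomes, other genes of chromosome 19, and other genes elsewhere, with the number of genes under each pair of bars. On chromosome 19 29.5% of ZNF genes and 5.96% of other genes were higher with miR-23b.

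The gene span in RefSeq, introns included, had a median of 22.65 kb over all 260 members. It was 29.4 kb over the 46 members that rose with both miRNAs, 21.5 kb over the 168 that passed with neither and 10.6 kb over the 9 that fell with both. Over all genes it was 28.4 kb, with 51.8 kb for those that rose with both and 9.45 kb for those that fell with both. Lengths of the mRNAs were not used here, and the part of length in the calls was not tested.

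Of the members, 46 pairs were direct neighbours in the order of protein-coding genes, 28 of them on chromosome 19. In ZNF615 and ZNF614 both genes rose with both miRNAs. With miR-23b both members of ZNF548 and ZNF17 and of ZNF564 and ZNF490 rose as well, and with miR-27a both of ZNF789 and ZNF394 did, while ZNF787 and its neighbour ZNF444 both fell with miR-27a. The rise of ZNF394 rests on its brighter probe, as its other probe gave -0.27 with miR-27a (limma, adjusted p = 0.27). These 3 and 2 pairs in which both rose were 6.52% and 4.35% of the 46, where 2.24% and 5.41% of all 4921 pairs of measured neighbours were of that kind. In 11 pairs for miR-23b and 13 for miR-27a 1 gene rose and its neighbour did not pass, or 23.9% and 28.3%, where 19.2% and 22.1% of all pairs did so. In 0 pairs 1 rose and the other fell, where 2.48% and 3.92% of all pairs did. With the block this held for 1 pair for miR-23b, ZNF580 and ZNF581, and for 2 with miR-27a, ZNF274 with each of its neighbours ZNF329 and ZNF544. These pairs were 2.17% and 4.35% of the 46, where 8.86% and 10.2% of all pairs were of that kind with the block.

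Probes of 1 gene did not always give the same call. Of 49 members with several probes, 14 had probes that differed in passing for miR-23b, and 14 for miR-27a. The same share over all genes with several probes is not given here, so these counts are not particular to the family. In 2 the probes passed in opposite directions with miR-27a. For ZNF585A the brighter probe, which stands for the gene here, gave 1.10 for miR-23b and 0.49 for miR-27a, while the dimmer one gave -0.02 and -0.72. The mean of both probes was 0.54 and -0.11. For ZNF280D the brighter probe gave 0.68 and 0.94, and the dimmer one -0.48 and -0.57. The transcripts that each probe reads are not known here, so the direction of these genes is uncertain.

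Among all genes, those most like ZNF562 over the 8 arrays were LRCH2 (Pearson's r = 0.998), TMEM19 (0.997), NRIP1 (0.996), SNRNP48 (0.996) and SLC35E3 (0.996). All of these were higher in each pull-down, with changes between 0.67 and 1.49 for miR-23b and between 0.98 and 2.11 for miR-27a. That direction follows from the choice of these genes by their correlation with ZNF562 over the same arrays, and is not a separate result.

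KRAB zinc finger proteins silence chromatin through a set of partners, and 19 of 26 symbols listed for this machinery were measured. Of these 2 rose and 2 fell with each miRNA, where 13.4% and 10.9% of all genes rose and fell with miR-23b and 18.5% and 16.1% with miR-27a, with medians of 0.03 and -0.06. CBX3, a heterochromatin protein, rose with both (0.52 ± 0.12 and 0.69 ± 0.12), and PPHLN1, a subunit of the HUSH silencing complex (-0.82 ± 0.14 and -0.51 ± 0.14), and the DNA methyltransferase gene DNMT3B (-0.66 ± 0.13 and -0.55 ± 0.13) fell with both. ATF7IP2 rose with miR-23b (0.76 ± 0.13) and the remodeller SMARCAD1 with miR-27a (1.14 ± 0.15), and for neither did the difference pass (adjusted p = 0.21 and 0.22).

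Other zinc finger genes numbered 44 under 4 related symbols. The counts of this paragraph stand beside shares of all genes of 13.4% higher and 10.9% lower with miR-23b, and 18.5% and 16.1% with miR-27a. Of 23 ZBTB genes, whose products join fingers to a BTB dimerization domain, 4 rose and 1 fell with miR-23b and 4 and 0 with miR-27a, and medians of 0.12 and 0.19, with ZBTB33 (1.11 ± 0.14 and 0.98 ± 0.14) and ZBTB34 (0.79 ± 0.16 and 1.05 ± 0.16) rising with both. Of 8 ZSCAN genes 1 rose with miR-23b, and 1 rose and 2 fell with miR-27a, and the median was -0.12 and -0.28. Of 5 ZKSCAN genes 2 rose with miR-23b and 1 with miR-27a, with medians of 0.37 and 0.06. Of 8 ZFP genes 2 rose with each miRNA and 1 fell with miR-23b, with medians of 0.18 and 0.20. The ZFP genes were grouped by symbol alone and their folds were not checked. ZFP36 (0.77 ± 0.13) was among those that rose with miR-23b. Among families of other zinc-binding folds, 1 of 11 ZC3H genes rose with miR-23b, and 2 rose and 2 fell with miR-27a. For 18 ZDHHC genes, which encode palmitoyl transferases, these counts were 1 rise, then 2 rises and 2 falls. Of 53 RNF genes, mostly ubiquitin ligases, 8 rose and 4 fell with miR-23b and 12 and 5 with miR-27a. None of these lists had a gene whose changes differed between the miRNAs in limma except RNF, with 1. By this difference 0.283% of all genes were higher with miR-27a and 0.262% with miR-23b.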

How the data were processed

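The authors deposited log2 values of 14479 probes for each array, and the submitters' processing notes name lumi 2.2.1. How lumi transformed and normalized the signals, and which probes were dropped, is not given in the sources consulted. If a variance-stabilizing transformation was used, folds are apparent and changes of dim probes are understated. A table of non-normalized signals was not used, since its 16 columns carry names that match no sample, so no detection filter was applied and the planned neqc normalization was not run. Of the probes, 12008 had 1 gene in the platform annotation, 2 had several and 2469 had none. Where a gene had several probes, the one brightest on average was used, and all 260 members matched RefSeq (GRCh38.p14), used for names, chromosome, order and span.

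Group means of the 4 groups were fitted together in limma 3.58.1 (R 4.3.3), using 8 arrays (4 residual degrees of freedom, empirical Bayes, two-sided). Benjamini-Hochberg adjustment covered every probe, and a gene passed under 0.05. Each share of all genes is over 9535 genes. The script was tested on simulated data. The deviation of replicate 2 from replicate 1 correlated between groups at 0.34 to 0.80 over 6 pairs, above 0.1 in each, which rests on the values, as the labels state no shared batch. Counts, SEs and adjusted p-values are from the fit without a replicate term, and those of the fit with it are named as such. The number of arrays limits the precision.

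Members and lists were chosen with earlier results of these data known. The genes named by rule were, per comparison, up to 10 members with the largest rise and 10 with the largest fall among those that passed without overlap of the arrays, and the 5 with the largest difference in each direction. Finger counts, KRAB domains and seed matches were not computed here. Alternatives were equal medians, quantile normalization, the replicate block, a filter on dim probes, a trended robust prior, the mean of a gene's probes, and leaving out each array.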

Additional observations from a re-analysis of the deposited data

How the results depend on the processing

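Counts of members that rose or fell stayed within 1.5 times under equal medians, quantile normalization, the trended robust prior, the mean of a gene's probes and the filter on dim probes. With the replicate block 24 members fell with miR-23b, 41 fell with miR-27a, and 10 differed between the miRNAs. The filter, which keeps 179 members, moved the medians to 0.24 with miR-23b, 0.22 with miR-27a and 0.046 for the difference. Leaving out 1 array gave 24 to 53 rises and 4 to 10 falls with miR-23b, 43 to 64 and 5 to 16 with miR-27a, and 0 differences, and a median difference of -0.034 to 0.065, against 0.016, so that its sign is not settled. The medians were 0.11 to 0.20 with miR-23b and 0.06 to 0.17 with miR-27a. Of the 56 rises with miR-23b 22 kept their call without each of the 8 arrays, and 40 of the 65 with miR-27a, as did 4 of 11 and 4 of 15 falls. Of the changes and differences named by rule, 1 reversed: ZNF585A with miR-27a became -0.11 with the mean of its probes, which also ended the calls of ZNF280D and of ZNF16 with miR-23b. The block ended none of these calls. Small changes that did not pass have no settled sign, as for ZNF330 with miR-23b (-0.09 to 0.05 with an array left out) and ZNF792 with miR-27a (-0.26 to 0.06). Where an array is left out, the lone array of its group is taken to vary like the others. Signal over background is unknown here, which limits what can be said of the dim members. The planned neqc normalization of the non-normalized signals was not run.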
